A study of Mus musculus with 4 samples.

Results

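The mouse embryonic stem cells (mESCs) of the E14TG2a line made up 2137 of the 6497 cells that passed the same filter in 3 mouse cell lines. The members were chosen from the mESC matrix as barcodes with at least 1000 unique molecular identifiers (UMIs, tags that count single RNA molecules) and at most 20% of UMIs in genes of the mitochondrial genome, and 18 barcodes with enough UMIs were lost to the second condition. The study tested CapMux, a pipeline that assigns cells of a pooled CapSeq library to samples by BC1, the barcode segment added on the first plate. Neuro-2a neuroblastoma cells, NIH/3T3 fibroblasts and mESCs were barcoded together in 1 split-pool single-cell experiment on polyadenylated RNA. Each line was 1 sample with no replicate, so no test between lines is possible, and the values below describe these libraries. E14TG2a mESCs were grown on gelatin without a feeder layer being named, in DMEM with 15% fetal bovine serum, leukemia inhibitory factor (LIF), 3 µM CHIR99021, 1 µM PD0325901, pyruvate, β-mercaptoethanol, a glutamine dipeptide and non-essential amino acids. Neuro-2a and NIH/3T3 cells were grown in DMEM with 10% fetal bovine serum, with none of these additions named, and all lines received penicillin and streptomycin, so line and medium cannot be told apart in any comparison.

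Mouse embryonic stem cells keep the potential of the early epiblast through a network of transcription factors around Pou5f1 (Oct4), Sox2 and Nanog. LIF acts through the kinase JAK1 and the transcription factor STAT3. CHIR99021 inhibits GSK3 and so stabilises β-catenin, the effector of Wnt signalling, and PD0325901 inhibits MEK and so the ERK kinases. Cells held in LIF and both inhibitors are described as naive, and a small share of them passes through a state with transcripts of the 2-cell embryo. E14TG2a is a male line long used for its deficiency in Hprt, the enzyme that salvages hypoxanthine and guanine.

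The 2137 mESCs held 12322098 UMIs, 88.8% of the 13875356 UMIs in the mESC matrix. A cell held between 1003 and 30509 UMIs, with a median of 4803 and quartiles of 2865 and 7528, and a median of 2600 genes. The median was 6185 UMIs in the 2323 Neuro-2a cells and 4863 in the 2037 NIH/3T3 cells. When every cell was thinned to 1000 UMIs, the median was 810 genes in mESCs, 822 in Neuro-2a and 813 in NIH/3T3. The lines were separated by BC1, itself a segment of the barcode, so no full barcode can be shared between them, and 0 were. The mESCs were spread over 32 BC1 sequences, with 50 to 102 cells each. Since these are barcodes of the same sample, they serve below as a description of the spread within the library and not as replicates.

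All 5 marker genes of the line were high in mESCs. They were chosen with earlier results of these data known, so they describe the label and are no independent check. Dppa5a, which codes for a KH-domain RNA-binding protein of the inner cell mass, had 1821 CPM in mESCs, 5.90 CPM in Neuro-2a and 11.4 CPM in NIH/3T3. Levels are given as CPM, the UMIs of a gene summed over the cells of a line and scaled to a total of 1e6. Over the 32 BC1 sequences of mESCs, the lowest, median and highest levels of Dppa5a were 1451, 1838 and 2251 CPM, whereas no BC1 sequence of the other lines exceeded 37.1 CPM. Zfp42 (Rex1), a zinc finger protein used as a sign of the naive state, had 1318 CPM in mESCs, 0.780 CPM in Neuro-2a and 1.20 CPM in NIH/3T3. Cobl, an actin nucleator, had 1214 CPM in mESCs, 1.11 CPM in Neuro-2a and 1.28 CPM in NIH/3T3, and L1td1, an RNA-binding protein derived from a LINE-1 element, had 614 CPM in mESCs, 0.501 CPM in Neuro-2a and 0.427 CPM in NIH/3T3. Pou5f1 was the lowest of the 5 with 57.8 CPM in mESCs, 0.223 CPM in Neuro-2a and 0.0855 CPM in NIH/3T3, and its values by BC1 sequence were 35.1, 56.2 and 112 CPM. For every marker, the BC1 sequences of mESCs lay above all BC1 sequences of both other lines, as they did at 7.14% of the 11366 genes with at least 10 CPM in a line.

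**Figure D1:**
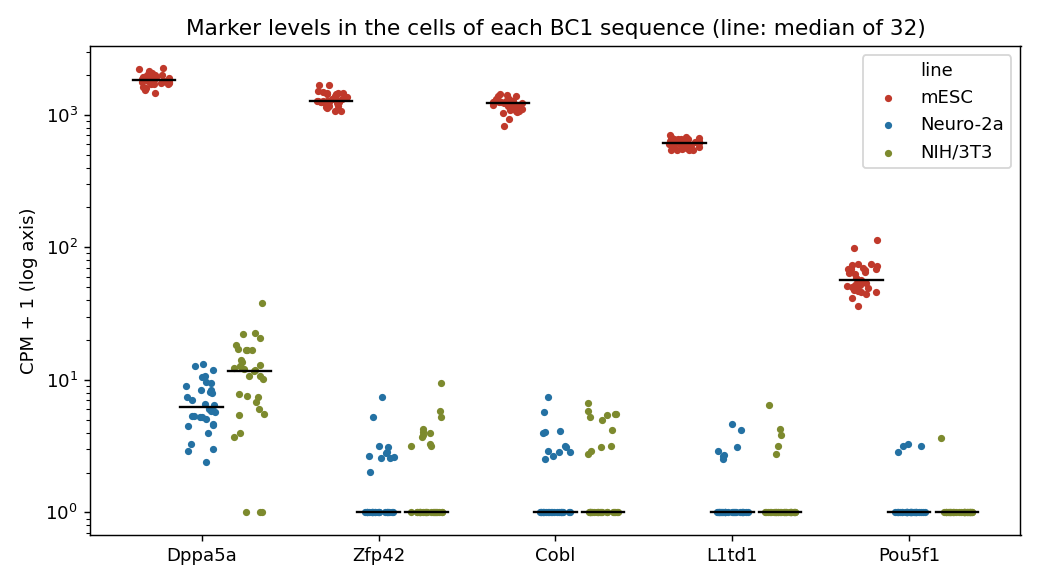
Levels of the 5 marker genes as CPM + 1 on a log axis, with 1 point for the cells of each BC1 sequence (32 per line) and a bar at the median. The points of mESCs lie above those of Neuro-2a and NIH/3T3 for all 5 genes, and Pou5f1 is the lowest marker in mESCs, with 35.1 to 112 CPM.

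In single cells, the markers were detected unevenly. At 1000 UMIs per cell, 80.2% of mESCs held a UMI of Dppa5a, 69.7% of Zfp42, 65.0% of Cobl, 42.2% of L1td1 and 5.10% of Pou5f1. Without thinning, the shares were 96.5%, 94.6%, 90.5%, 81.8% and 25.9% in the same order. The 5 markers together had a median of 5 UMIs per 1000 in mESCs, and 51 of the 2137 mESCs (2.39%) had none. In the other lines 99.3% of Neuro-2a cells and 98.7% of NIH/3T3 cells had none, and this is the background against which the shares in mESCs are read.

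Transcripts of ribosomal proteins, chaperones and nucleolar proteins were among the most abundant of mESCs. The 100 most abundant genes took 15.7% of all UMIs (95% exact binomial interval 15.65% to 15.69%), against 14.6% and 16.3% for the 100 most abundant genes of Neuro-2a and of NIH/3T3. Genes whose symbol starts with Rpl or Rps took 8.39% of UMIs in mESCs, 7.34% in Neuro-2a and 9.59% in NIH/3T3, and the 13 mitochondrial genes took 2.14%, 2.28% and 2.68%. Intervals here and below cover counting error only. The highest gene of all was mt-Co1, a mitochondrial subunit of cytochrome c oxidase looked up after its value was seen, with 4966 CPM. Of the 25 most abundant genes outside the mitochondrial genome, 13 were Rpl or Rps genes. The nuclear long noncoding RNA Malat1 was first among these 25, with 4656 CPM in mESCs, 2127 CPM in Neuro-2a and 6891 CPM in NIH/3T3. The chaperone Hsp90ab1 had 4413 CPM in mESCs, 2981 CPM in Neuro-2a and 2168 CPM in NIH/3T3, and Hsp90aa1, its stress-inducible relative, had 2819 CPM in mESCs, 667 CPM in Neuro-2a and 1285 CPM in NIH/3T3. The nucleolar proteins Npm1 and Ncl reached 3217 and 2826 CPM, the elongation factor Eef1a1 reached 2902 CPM and β-actin (Actb) 2344 CPM.

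Of these 25 genes, 3 also passed the rule for a line difference, and the share over all tested genes was 7.01%. A gene was called higher when its CPM + 1 was at least 4 times its value in each other line, and 11366 genes that reached 10 CPM somewhere were tested. Eif2s2, the β subunit of the initiation factor eIF2, had 3743 CPM in mESCs, 842 CPM in Neuro-2a and 718 CPM in NIH/3T3, and its BC1 sequences ranged from 3292 to 4118 CPM in mESCs. Kat6b, a histone acetyltransferase, had 1886 CPM in mESCs, 142 CPM in Neuro-2a and 91.0 CPM in NIH/3T3. Dppa5a was the third.

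Of the 11366 genes tested, 797 (7.01%) were higher in mESCs than in both other lines and 375 (3.3%) were lower than in both. Against Neuro-2a alone, 11.2% were higher and 10.4% lower, and against NIH/3T3 alone 11.9% and 9.94%. The 25 genes with the largest ratio among those with at least 50 CPM in mESCs span several functions. At none of them did a BC1 sequence of mESCs overlap with one of the other lines, which follows from their choice by ratio (7.14% of tested genes lay wholly above). Besides the markers, they include the transcription factors Nanog, Nr5a2, Sall4, Klf2 and Gli2. Nanog, a core factor of the pluripotency network, had 572 CPM in mESCs, 1.56 CPM in Neuro-2a and 1.20 CPM in NIH/3T3, with 506, 576 and 676 CPM as its lowest, median and highest values by BC1 sequence. Tet1, the dioxygenase that oxidises 5-methylcytosine, had 1189 CPM in mESCs, 6.74 CPM in Neuro-2a and 5.98 CPM in NIH/3T3 and was the most abundant of the 25 outside the markers.

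**Figure D2:**
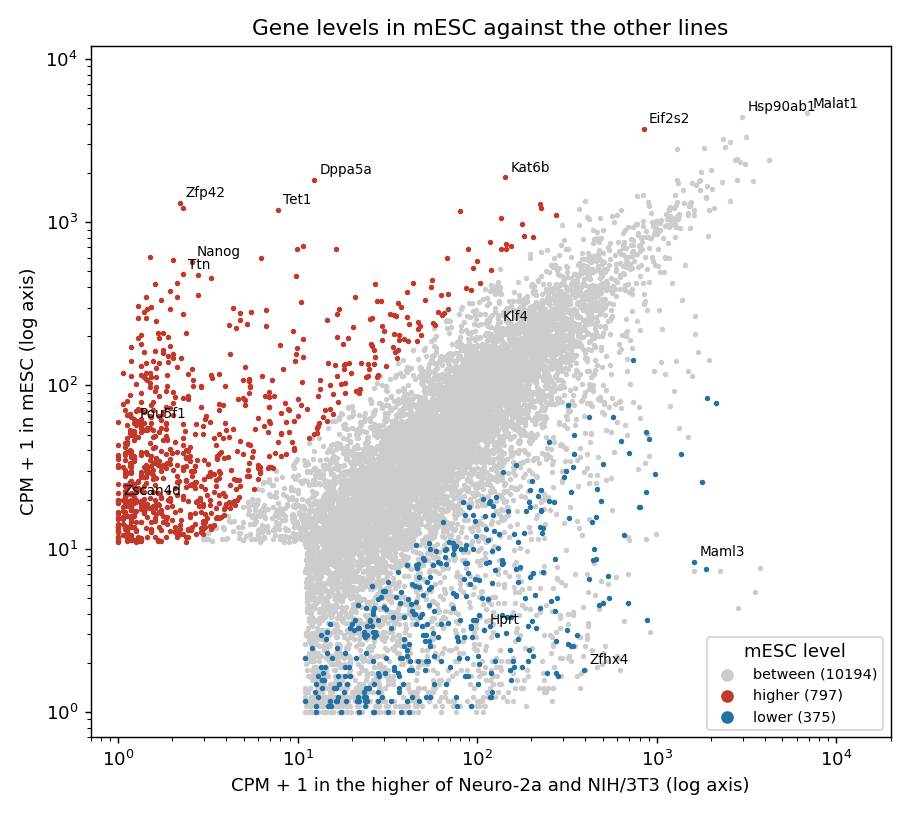
Level of each of 11366 genes in mESCs against its level in the higher of Neuro-2a and NIH/3T3, both as CPM + 1 on log axes, with called genes in colour. The 797 higher genes lie above the cloud with Zfp42, Dppa5a and Tet1 at its upper left, and the 375 lower genes lie below it among grey genes that are low against only 1 line.

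Several of the 25 genes act at the cell surface. Jam2, a junctional adhesion molecule, had 587 CPM in mESCs, 0.891 CPM in Neuro-2a and 1.03 CPM in NIH/3T3. Tdgf1 (Cripto), a coreceptor for Nodal, had 474, 1.78 and 1.37 CPM in the same order, the receptor tyrosine kinases Kit and Epha4 had 379 and 346 CPM in mESCs, and the water and glycerol channel Aqp3 had 247 CPM. None of these 4 exceeded 1.78 CPM in another line. The receptor phosphatase Ptprk, the basement membrane protein Nid2 and the transmembrane protein Parm1 had 332, 195 and 204 CPM.

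Others are of varied kinds, and Ttn and Sh3gl2 are better known from differentiated tissues. Ttn, which codes for the giant sarcomere protein titin, had 478 CPM in mESCs, 0.668 CPM in Neuro-2a and 1.28 CPM in NIH/3T3. Sh3gl2 (endophilin A1), which bends membranes at synapses, had 292 CPM, but another gene overlaps it on the same strand and the split of reads between them is uncertain. The Rac exchange factor Prex2 had 346 CPM, the autophagy receptor Calcoco2 425 CPM and Rnf17, a Tudor domain protein of germ cells, 305 CPM. Fbxo15, an F-box protein used as a reporter gene of pluripotency, had 416 CPM, with 282, 403 and 726 CPM as its lowest, median and highest values by BC1 sequence.

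Promoters of mESC-higher genes were poorer in CpG than those of the tested genes as a whole. For each gene, 250 bases before and 50 bases after the start of the canonical transcript were read from GRCm39 (positions from GENCODE M39). The median number of CpG dinucleotides in this window was 12 for the 790 mESC-higher genes with a promoter, 11.5 for 374 mESC-lower genes and 18 for all 11346 tested genes. At least 10 CpG were present in 56.2%, 58.0% and 77.7% of them, respectively. Over all 32953 promoters in the annotation, the median was 7 CpG, and 42.3% held at least 10. The sequences of 4 strongly enriched genes illustrate the range, from 2 CpG in Triml2 to 27 in Klf2. They lie on GRCm39 at chr8:43760103-43760402 (Zfp42, minus strand), chr10:62715744-62716043 (Tet1, minus), chr8:43633140-43633439 (Triml2, plus) and chr8:73072476-73072775 (Klf2, plus), and are written 5′ to 3′ on the strand of the gene with motif matches in capitals.
Zfp42: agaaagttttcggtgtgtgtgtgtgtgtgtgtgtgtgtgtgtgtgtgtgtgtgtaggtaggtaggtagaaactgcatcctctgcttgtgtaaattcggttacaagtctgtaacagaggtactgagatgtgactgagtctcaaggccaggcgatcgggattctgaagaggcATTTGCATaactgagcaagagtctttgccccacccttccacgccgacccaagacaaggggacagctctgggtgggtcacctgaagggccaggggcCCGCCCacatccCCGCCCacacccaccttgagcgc
Tet1: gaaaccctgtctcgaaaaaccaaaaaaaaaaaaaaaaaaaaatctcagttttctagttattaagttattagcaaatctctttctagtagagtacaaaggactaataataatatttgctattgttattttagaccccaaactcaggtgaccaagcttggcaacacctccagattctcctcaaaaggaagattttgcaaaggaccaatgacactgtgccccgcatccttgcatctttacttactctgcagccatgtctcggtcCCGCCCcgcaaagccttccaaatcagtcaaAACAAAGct
Triml2: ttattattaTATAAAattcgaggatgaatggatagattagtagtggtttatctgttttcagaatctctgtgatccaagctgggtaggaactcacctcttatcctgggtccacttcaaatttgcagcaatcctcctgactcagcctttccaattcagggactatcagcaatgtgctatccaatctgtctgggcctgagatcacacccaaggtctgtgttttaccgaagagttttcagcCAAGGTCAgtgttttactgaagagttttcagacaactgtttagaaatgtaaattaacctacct
Klf2: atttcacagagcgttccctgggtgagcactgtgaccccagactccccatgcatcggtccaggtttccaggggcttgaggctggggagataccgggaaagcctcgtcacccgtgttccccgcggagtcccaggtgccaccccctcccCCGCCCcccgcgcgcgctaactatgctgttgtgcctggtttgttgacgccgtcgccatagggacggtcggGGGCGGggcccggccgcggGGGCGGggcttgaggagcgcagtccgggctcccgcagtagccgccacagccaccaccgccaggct

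The motifs searched on both strands were the TATA box (TATAAA), the GC box (CCGCCC), the E box (CACGTG), the octamer bound by Oct factors (ATGCAAAT), a Sox element (CTTTGTT) and the element bound by Esrrb (CAAGGTCA). The window of Zfp42 holds the octamer 80 bases before the start, read on the other strand as ATTTGCAT, and 2 GC boxes after the start. That of Tet1 holds a Sox element and a GC box, both after the start, and that of Triml2 holds the Esrrb element 13 bases before the start and a TATA box farther upstream. In Klf2, 3 GC boxes were found. Across the mESC-higher genes, the octamer was present in 2.03% of windows against 1.45% of all tested genes and 2.39% of the 32953 promoters in the annotation. The corresponding shares were 1.77%, 1.15% and 1.77% for the Esrrb element, 6.58%, 4.83% and 6.31% for the Sox element, 11.6%, 8.01% and 13.4% for the TATA box, 8.48%, 10.2% and 6.95% for the E box, and 45.3%, 59.0% and 33.8% for the GC box. The mESC-lower genes had similar shares for the TATA box (12.3%), the octamer (2.14%) and the Sox element (5.88%), with 0.802% for the Esrrb element, 7.22% for the E box and 50% for the GC box. A match of letters is a description of sequence and not a bound site.

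The called genes also differed from the tested genes in type and length. Long noncoding RNAs made up 10.8% of mESC-higher genes (85 genes) and 10.4% of mESC-lower genes, against 4.43% of tested genes. The median gene span was 44524 bases for higher, 40193.5 bases for lower and 30662 bases for all tested genes, whereas the median transcript length was 3356, 3753 and 3495 bases. Whether reads in introns were counted is not given in the sources used here.

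Transcription factors of pluripotency were higher in mESCs almost as a whole list. Of 18 factors, 16 reached 10 CPM in a line, and 15 of these were called higher and 0 lower, where 7.01% of all tested genes were higher. The median log2 ratio was 6.00 over Neuro-2a and 6.08 over NIH/3T3, compared with -0.04 and -0.01 over all tested genes. The lists are described by counts and medians without a test, and members beyond those with the highest level or the most extreme ratio were named for their role after their values were seen. Some members, here and in lists below, reached 10 CPM in mESCs alone and so entered the comparison through their level there. The share of a list called higher is therefore in part set by this minimum. The naive factors Tfcp2l1, Tbx3, Esrrb and Klf5 had 713, 415, 357 and 326 CPM. Tbx3 also had 25.7 CPM in NIH/3T3, and Klf5 had 28.2 and 18.8 CPM in Neuro-2a and NIH/3T3, so these 2 were the least exclusive among them. Klf4 was the 1 factor not called, since it had 229 CPM in mESCs, 12.0 CPM in Neuro-2a and 128 CPM in NIH/3T3. Lower levels were found for Nr0b1 (51.7 CPM), Zscan10 (38.1 CPM) and Prdm14 (33.9 CPM), a repressor of FGF signalling and DNA methylation in naive cells, and their levels in the other lines did not exceed 2.00 CPM. Gbx2 had 7.06 CPM, under the minimum for a call. Sox2 was listed at 0 UMIs in all 3 lines, and it lies inside the longer gene Sox2ot on the same strand, which was looked up after these values were seen and had 59.6 CPM in mESCs, 118 CPM in Neuro-2a and 3.68 CPM in NIH/3T3.

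Of 20 tested genes associated with pluripotency, 16 were higher (80%, against 7.01% of all tested genes) and 0 lower. The median log2 ratios were 6.05 over Neuro-2a and 6.53 over NIH/3T3. Alpl, the alkaline phosphatase used to stain stem cell colonies, had 224 CPM in mESCs, 3.51 CPM in Neuro-2a and 0 CPM in NIH/3T3. The growth factors Fgf4 and Gdf3 had 160.3 and 101 CPM, with at most 0.390 CPM elsewhere, and the chromatin-associated proteins Dppa2 and Dppa4 had 361 and 85.1 CPM. The 4 genes that were not called were each high in 1 other line. The secreted phosphoprotein Spp1 had 795 CPM in mESCs, 2.12 CPM in Neuro-2a and 464 CPM in NIH/3T3, and the glucose transporter Slc2a3, which shares its strand with an overlapping gene, had 602 CPM in mESCs, 196 CPM in Neuro-2a and 2.74 CPM in NIH/3T3. The let-7 inhibitors Lin28a and Lin28b went the other way against Neuro-2a. Lin28b had 24.6 CPM in mESCs, 295 CPM in Neuro-2a and 2.56 CPM in NIH/3T3, and Lin28a had 9.09 CPM in mESCs, 36.0 CPM in Neuro-2a and 0.256 CPM in NIH/3T3.

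**Figure D3:**
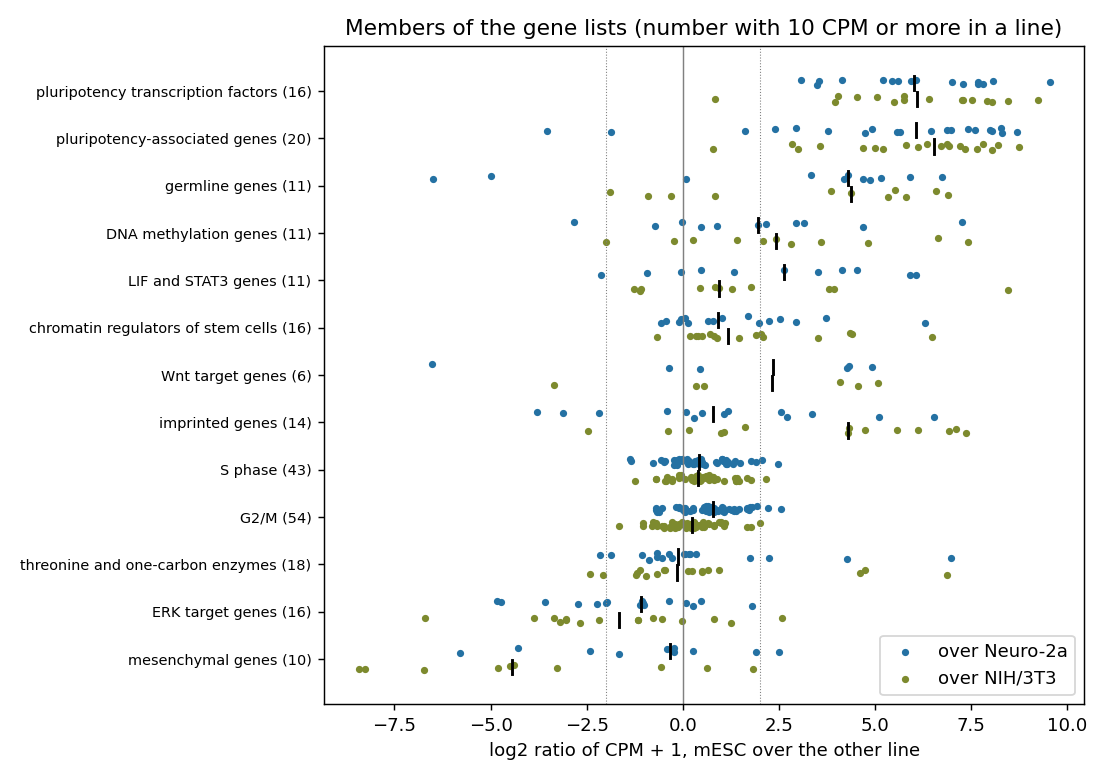
Log2 ratios of CPM + 1 in mESCs over Neuro-2a and over NIH/3T3 for the members of 13 gene lists that reached 10 CPM in a line (number in brackets), with bars at the medians and dotted lines at a ratio of 4. The pluripotency lists lie far to the right, and the medians of the ERK target list are -1.09 and -1.67. Those of the S phase list are 0.43 and 0.39, and those of the G2/M list are 0.80 and 0.24.

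Genes of the 3 signalling pathways acted on by the medium had different levels. In the list of LIF and STAT3 genes, 3 of 11 tested members were higher (27.3%, against 7.01% of all tested genes) and 0 lower, with median log2 ratios of 2.63 over Neuro-2a and 0.94 over NIH/3T3. The STAT3 targets Tfcp2l1, Pim1 and Bcl3 were the 3, with 164, 25.6 and 10.8 CPM for Pim1 and 34.8, 0.557 and 1.37 CPM for Bcl3 in mESCs, Neuro-2a and NIH/3T3. The receptor Lifr had 68.6 CPM in mESCs, 0.167 CPM in Neuro-2a and 19.4 CPM in NIH/3T3. Stat3 itself had 99.4 CPM in mESCs, 103 CPM in Neuro-2a and 40.3 CPM in NIH/3T3, and its feedback inhibitor Socs3 had 34.3 CPM in mESCs, 2.12 CPM in Neuro-2a and 24.9 CPM in NIH/3T3. The kinase Jak1 had 122 CPM in mESCs and more in the other lines, with 235 and 295 CPM.

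In the list of ERK target genes, 0 of 16 tested members were higher and 4 were lower, where the background is 3.3% lower. The median log2 ratios were -1.09 over Neuro-2a and -1.67 over NIH/3T3. The 4 were Dusp4 and Dusp6, phosphatases that act on ERK, and the transcription factors Egr1 and Myc. Dusp6 had 9.50 CPM in mESCs, 48.2 CPM in Neuro-2a and 85.2 CPM in NIH/3T3. Egr1 had 6.09 CPM in mESCs, 202 CPM in Neuro-2a and 30.9 CPM in NIH/3T3, and Myc had 4.14 CPM in mESCs, 60.5 CPM in Neuro-2a and 74.7 CPM in NIH/3T3. Etv5, an ETS factor also counted among the targets, stood on the other side with 321 CPM in mESCs, 92.3 CPM in Neuro-2a and 53.2 CPM in NIH/3T3, a log2 ratio of 1.79 to the higher of the other lines. The ERK inhibitor Spred2 had 212 CPM and was close to Neuro-2a with 200.5 CPM.

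Of 6 tested Wnt target genes, 3 were higher and 0 lower, against 7.01% and 3.3% of all tested genes. These 3 reached 10 CPM in mESCs alone, so their share follows largely from that minimum. Cdx1, a homeobox factor, had 35.7 CPM in mESCs, 0.223 CPM in Neuro-2a and 0.0855 CPM in NIH/3T3. Tcf7, a DNA-binding partner of β-catenin, had 32.1 CPM in mESCs, 0.724 CPM in Neuro-2a and 0.940 CPM in NIH/3T3, and Notum, a secreted enzyme that inactivates Wnt, had 24.7 CPM in mESCs, 0.278 CPM in Neuro-2a and 0.0855 CPM in NIH/3T3. The most abundant member, the ubiquitin ligase Znrf3, which removes Wnt receptors, had 197 CPM in mESCs, 144 CPM in Neuro-2a and 154 CPM in NIH/3T3 and was not called. Several further members were low. Axin2 had 9.82 CPM, Sp5 1.14 CPM, Lef1 1.70 CPM and the mesoderm factor T 0.406 CPM. Cyclin D1 (Ccnd1), a member of both the Wnt and the ERK list, had 58.4 CPM in mESCs, 74.9 CPM in Neuro-2a and 601 CPM in NIH/3T3.

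Genes that write, erase and protect DNA methylation included 5 higher and 0 lower genes among 11 tested, against 7.01% and 3.3% of all tested genes. The median log2 ratios were 1.96 over Neuro-2a and 2.41 over NIH/3T3. Tet1 and Tet2 had 1189 and 603 CPM, whereas Tet3 had 23.1 CPM in mESCs, 172 CPM in Neuro-2a and 95.5 CPM in NIH/3T3, just short of a call as lower. Zfp57, which protects imprinted methylation, had 198 CPM in mESCs, 6.79 CPM in Neuro-2a and 15.6 CPM in NIH/3T3. The de novo methyltransferase Dnmt3b and its cofactor Dnmt3l were called higher at modest levels of 57.9 and 14.4 CPM. The maintenance enzyme Dnmt1 had 226 CPM in mESCs, 163 CPM in Neuro-2a and 189 CPM in NIH/3T3, and its partner Uhrf1 had 352 CPM in mESCs, 189 CPM in Neuro-2a and 133 CPM in NIH/3T3.

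Among 16 chromatin regulators, 4 were higher (25%, against 7.01% of all tested genes) and 0 lower. Mtf2, an accessory subunit of Polycomb repressive complex 2 (PRC2), had 1289 CPM in mESCs, 223 CPM in Neuro-2a and 112 CPM in NIH/3T3. Epop, another accessory subunit, had 127 CPM in mESCs, 0.613 CPM in Neuro-2a and 0.427 CPM in NIH/3T3. Jarid2, the third accessory subunit in the list, had 1204 CPM in mESCs, 369 CPM in Neuro-2a and 55.8 CPM in NIH/3T3 and was not called because of its level in Neuro-2a. The core subunits Suz12, Eed and Ezh2 had 510.5, 248 and 397 CPM in mESCs, and Ezh2 was close to its level of 363 CPM in Neuro-2a. The remodellers Chd4 and Smarca4, with 451 and 216 CPM, also differed little from Neuro-2a, which had 479.6 and 225 CPM.

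Transcripts of germ cell genes were present in mESCs, and 7 of 11 tested genes were higher (63.6%, against 7.01% of all tested genes) and 0 lower. Dazl, Rpl10l, Tex19.1, Hormad1, Stk31 and Sycp3 reached 10 CPM in mESCs alone, so this share follows largely from that minimum. The RNA-binding protein Dazl had 129 CPM in mESCs, 4.07 CPM in Neuro-2a and 0.0855 CPM in NIH/3T3. Rpl10l, a retrogene that codes for a ribosomal protein of the testis, had 136 CPM in mESCs, 0.278 CPM in Neuro-2a and 0.427 CPM in NIH/3T3, and reads of its parent gene could be split with it. Tex19.1, Hormad1, Stk31 and the synaptonemal complex protein Sycp3 had 68.6, 60.5, 52.8 and 28.5 CPM and less than 1 CPM elsewhere. The germ cell helicase Ddx4 had 18.3 CPM. Asz1 and Tdrkh were instead far higher in Neuro-2a, with 259 and 115 CPM there and 1.87 and 2.68 CPM in mESCs.

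Imprinted genes varied by locus. Of 14 tested, 3 were higher (21.4%, against 7.01% of all tested genes) and 0 lower, and all 3 are noncoding RNAs of the Dlk1-Meg3 domain on chromosome 12. Meg3 had 194 CPM in mESCs, 18.1 CPM in Neuro-2a and 0.427 CPM in NIH/3T3, Rian had 262 CPM in mESCs, 39.3 CPM in Neuro-2a and 0.598 CPM in NIH/3T3, and Mirg had 20.3 CPM in mESCs, 2.62 CPM in Neuro-2a and 0.0855 CPM in NIH/3T3. The coding genes of the same domain were low in mESCs, with 3.65 CPM for Dlk1 and a listing at 0 for Rtl1. Mest and Peg3 were far higher in Neuro-2a, with 626 and 682 CPM against 71.5 and 48.5 CPM in mESCs, and Grb10 was highest in NIH/3T3 with 248 CPM against 44.6. H19 had 3 UMIs in mESCs, and Igf2 had 0.

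Markers of differentiated and extraembryonic lineages were at or near 0, with a few exceptions. Of the 14 primitive endoderm genes, the defining factors Gata6 and Sox17 had 1.22 and 0.406 CPM, Gata4 had 2.27 CPM and Foxa2 was at 0 UMIs. The summed level of that list was 341 CPM in mESCs, of which the matrix protein Sparc held 219 CPM, against 195 CPM in Neuro-2a and 1628 CPM in NIH/3T3. Of 9 members tested, 1 was higher and 1 lower (11.1% each, against 7.01% and 3.3% of all tested genes). These were Lama1, a laminin chain, with 63.1 CPM, and Gata4. All 9 mesoderm genes together had 21.0 CPM, led by Gsc with 9.41 CPM and Eomes with 5.76 CPM, and none reached the minimum for a call. In the trophoblast list, Cdx2 had 0.487 CPM and Elf5 0.0812 CPM, while the AP-2γ gene Tfap2c had 69.6 CPM in mESCs, 0.0557 CPM in Neuro-2a and 0.0855 CPM in NIH/3T3.

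Among neural genes, 1 of 5 tested was higher and 0 lower, against 7.01% and 3.3% of all tested genes. Sox1, Hes5 and Dcx were at 0 and Pax6 had 5.19 CPM. Stmn2, a microtubule-destabilising protein of neurons, was the exception, with 162 CPM in mESCs, 0.334 CPM in Neuro-2a and 0.598 CPM in NIH/3T3, and it was the most abundant gene of the list, which summed to 230.5 CPM. In the list of primed and formative genes, Fgf5 was at 0, Otx2 had 6.74 CPM and Pou3f1 1.22 CPM. Of its 7 tested members, 5 were higher (71.4%, against 7.01% of all tested genes) and 1 was lower. This share is in part set by the minimum, since Nodal, Zic2 and Foxd3 reached 10 CPM in mESCs alone. The higher genes included Dnmt3b, Nodal, Zic2 and Foxd3 with 57.9, 36.5, 23.0 and 18.7 CPM, and the lower gene was Sox4 with 11.4 CPM in mESCs, 227 CPM in Neuro-2a and 94.2 CPM in NIH/3T3. Of 7 tested fibroblast and feeder genes, 0 were higher and 1, Vim, was lower, against 7.01% and 3.3% of all tested genes. In that list Col1a1, Col1a2, Col3a1, Thy1 and Cav1 had at most 1.14 CPM in mESCs, Postn and Lum were at 0, and the list's 735 CPM came mostly from fibronectin (Fn1), with 642 CPM in mESCs, 113 CPM in Neuro-2a and 411 CPM in NIH/3T3.

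Epithelial genes were called only as higher and mesenchymal genes only as lower in mESCs. Of 14 epithelial genes, 5 were tested and 4 of these were higher (80%, against 7.01% of all tested genes). These 4 reached 10 CPM in mESCs alone, so their share follows largely from that minimum. They were led by E-cadherin (Cdh1) with 298 CPM in mESCs, 0.557 CPM in Neuro-2a and 3.33 CPM in NIH/3T3. Epcam followed with 30.8 CPM, and the tight junction proteins Cldn4 and Ocln had 18.4 and 11.3 CPM. Of 10 tested mesenchymal genes, 0 were higher and 3 were lower (30%, against 3.3% of all tested genes). N-cadherin (Cdh2) had 14.4 CPM in mESCs, 298 CPM in Neuro-2a and 322 CPM in NIH/3T3, the repressor of E-cadherin Zeb2 had 3.98 CPM in mESCs, 277 CPM in Neuro-2a and 138 CPM in NIH/3T3, and vimentin (Vim) had 82.4 CPM in mESCs, 439.6 CPM in Neuro-2a and 1888 CPM in NIH/3T3. The related repressor Zeb1 was close to the other lines, with 172, 203 and 256 CPM in the same order. Fibronectin (Fn1), given above, went the other way and was higher in mESCs than in both other lines, but it was not called.

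The metabolic lists differed, with medians near those of all genes for one-carbon enzymes and lower ones for purine salvage. Of 18 threonine and one-carbon enzymes, 3 were higher and 1 lower (16.7% and 5.56%, against 7.01% and 3.3% of all tested genes), and the median log2 ratios of -0.13 and -0.16 were near those of all genes. Tdh, the threonine dehydrogenase of mouse stem cells, had 207 CPM in mESCs, 0.668 CPM in Neuro-2a and 0.769 CPM in NIH/3T3. The glycine cleavage genes Amt and Gldc had 31.4 and 28.1 CPM, and the mitochondrial enzyme Mthfd2l was lower with 4.54 CPM in mESCs, 23.8 CPM in Neuro-2a and 28.6 CPM in NIH/3T3. Hprt had 2.19 CPM in mESCs, 104 CPM in Neuro-2a and 108 CPM in NIH/3T3, and its 27 UMIs in mESCs gave a 95% exact Poisson interval of 1.44 to 3.19 CPM. No BC1 sequence of mESCs exceeded 6.40 CPM, and none of the other lines fell under 76.9 and 70.5 CPM. Hprt was the 1 gene called lower among the 4 tested for purine salvage (25%, against 3.3% of all tested genes), and 0 were higher. The median log2 ratios of these 4 genes were -1.20 over Neuro-2a and -1.18 over NIH/3T3, against -0.04 and -0.01 over all tested genes. The other salvage enzyme for purine bases, Aprt, had 122 CPM in mESCs, 404 CPM in Neuro-2a and 207 CPM in NIH/3T3.

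No gene of the cell cycle lists was called, while the summed S phase and G2/M levels were higher in mESCs than in the other lines. None of 12 cyclins and kinases was called in either direction, and the same held for 43 S phase and 54 G2/M genes, where 7.01% of all tested genes were higher and 3.3% lower. The summed S phase list had 8036 CPM in mESCs, 5204 CPM in Neuro-2a and 5308 CPM in NIH/3T3, and the summed G2/M list had 12111, 8327 and 10461 CPM. At 1000 UMIs per cell, the median mESC held 8 UMIs of the S phase list and 11 of the G2/M list, against 5 and 8 in both other lines. Only 7 mESCs (0.328%) had no S phase UMI, compared with 3.79% of Neuro-2a cells and 1.96% of NIH/3T3 cells. The D cyclins were unequal, since Ccnd3 had 168 CPM in mESCs, 49.8 CPM in Neuro-2a and 30.0 CPM in NIH/3T3 and Ccnd2 had 3.00 CPM in mESCs, 0.167 CPM in Neuro-2a and 318 CPM in NIH/3T3. Of 12 tested genes of the p53 pathway and cell cycle inhibitors, 1 (8.33%, against 7.01% of all tested genes) was called higher, namely the p53 target Trp53inp1 with 106 CPM in mESCs, 2.34 CPM in Neuro-2a and 4.36 CPM in NIH/3T3. Trp53 itself had 290.2 CPM and Cdkn1a (p21) 96.6 CPM.

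The 15 genes with the smallest ratio to both lines included coactivators of Notch, a calcium channel and proteins known from neurons. Zfhx4, a zinc finger homeobox factor, had 0.812 CPM in mESCs, 353 CPM in Neuro-2a and 390.4 CPM in NIH/3T3, the smallest ratio of the 15 genes named by this rule. Maml2 and Maml3, coactivators of Notch, had 1.70 and 7.30 CPM in mESCs, whereas Neuro-2a had 274 and 1609 CPM and NIH/3T3 254 and 481 CPM. The L-type calcium channel Cacna1c had 3.65 CPM in mESCs, 692 CPM in Neuro-2a and 345 CPM in NIH/3T3. The neuron navigator Nav3 had 5.76 CPM in mESCs, 422 CPM in Neuro-2a and 534 CPM in NIH/3T3, and the doublecortin-like kinase Dclk1 had 1.95 CPM in mESCs, 127 CPM in Neuro-2a and 107 CPM in NIH/3T3. Nrn1 (neuritin), Tiam2, an exchange factor for Rac, and the translational repressor Samd4 had 0.649, 3.17 and 2.03 CPM, where the other lines had at least 79.8 CPM. Another gene overlaps Samd4 on the same strand. The remaining genes were Zfp608, the unnamed loci Gm15398, Gm773, Gm45589 and 3830403N18Rik, and the pseudogene Rps18-ps6, whose reads cannot be separated with certainty from those of its parent gene. At all 15, the BC1 sequences of mESCs lay below those of both other lines, which follows from their choice by ratio (3.04% of tested genes lay wholly below).

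Levels along the genome were shifted on some chromosomes. Over 7127 genes with at least 10 CPM in every line, the median log2 ratio was -0.04 over Neuro-2a and -0.05 over NIH/3T3. Chromosome 15 stood lowest in both comparisons, at -0.58 over Neuro-2a and -0.56 over NIH/3T3 (275 genes), with quartiles of -1.12 and -0.01 in the first and -1.02 and 0.06 in the second. It held 3.84% of UMIs in mESCs, 5.25% in Neuro-2a and 5.70% in NIH/3T3. Chromosome 8 was at 0.38 over NIH/3T3 but -0.18 over Neuro-2a, and chromosome 6 was at 0.30 and -0.22. Chromosome 10 was at -0.44 over NIH/3T3 and -0.19 over Neuro-2a. Chromosome 3 was at -0.34 over NIH/3T3 and -0.27 over Neuro-2a, and chromosome 14 was at 0.24 and 0.22 in the same order. A shift in such a ratio cannot be assigned to 1 of the 2 lines it compares.

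**Figure D4:**
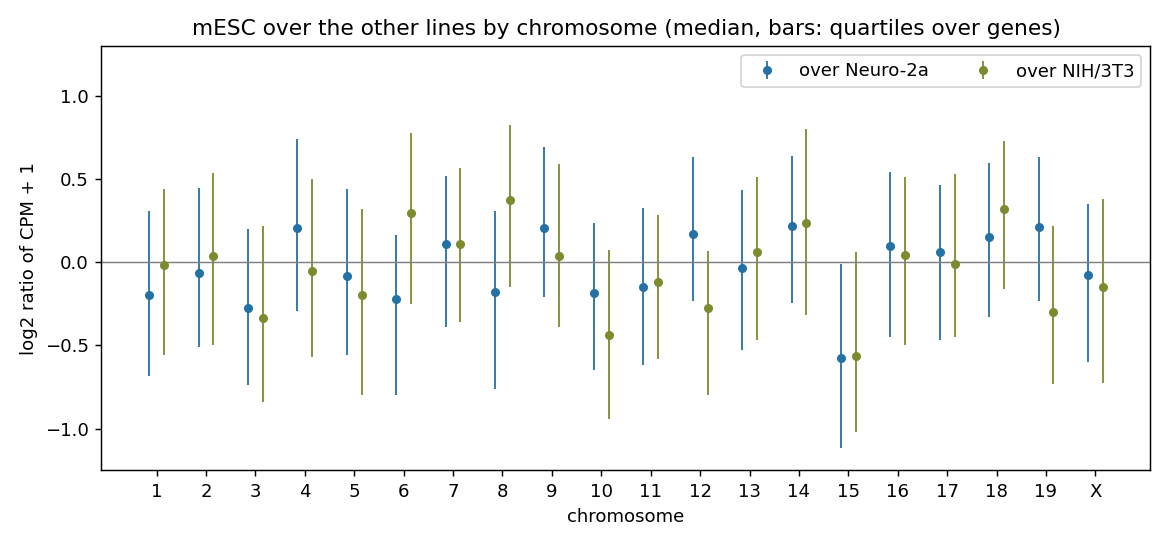
Median log2 ratio of CPM + 1 of mESCs over Neuro-2a and over NIH/3T3 for the genes of each chromosome with at least 10 CPM in every line, with bars from the lower to the upper quartile over genes. Chromosome 15 is lowest against both lines (-0.58 and -0.56), while chromosome 8 is high only against NIH/3T3 (0.38).

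The genes called higher were also spread unevenly. On the X chromosome, 11.3% of tested genes were higher in mESCs, on chromosome 4 10.6% and on chromosome 7 9.56%, against 7.01% over the genome and 3.39% on chromosome 19. The share of genes called lower was 5.59% on chromosome 3 and 1.65% on chromosome 12, against 3.3% over the genome.

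Within the line, transcripts of the 2-cell embryo were found in a small set of cells. Of the 18 genes listed for this state, 14 were in the table, and they had 1134 UMIs over all mESCs. Only 4 of them reached 10 CPM, and they did so in mESCs alone. All 4 were called higher, against 7.01% of all tested genes, which follows largely from that minimum and is not read as a result. The set of cells with at least 3 of these UMIs numbered 86 of 2137, or 4.02% (95% exact binomial interval 3.23% to 4.95%). With every cell thinned to 1000 UMIs, 46 cells (2.15%) reached this number. No Neuro-2a cell reached 3 UMIs (0 of 2323, which allows a share of up to 0.129% when 3 counts are taken as the limit of a 0), and 2 of 2037 NIH/3T3 cells did. A single UMI of the list or more was held by 7.72% of the mESCs, 0.0430% of the Neuro-2a cells and 5.35% of the NIH/3T3 cells. The NIH/3T3 UMIs were mainly of Usp17la, with 8.55 CPM there against 2.68 CPM in mESCs. On the other hand, the Zscan4 genes and Tmem92 had at most 0.256 CPM in either other line. The number of such cells depends on the minimum, since 12 of them held exactly 3 UMIs and 25 further cells held 2.

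The 86 cells carried several genes of the list at once. A median of 5 different list genes and 10 list UMIs was found per cell, with a highest count of 12 genes and 60 UMIs, and 3 of the cells held a single gene. Zscan4c was found in 64 of these cells, Zscan4d in 63, Tmem92 in 49 and Usp17lc in 41, and Duxf3, the family member whose protein activates this programme, in 5. Members of the Zscan4 and Usp17l families are near-identical copies, so reads could be split between them. The cells came from 30 of the 32 BC1 sequences, where they made up between 0 and 11.5% of cells with a median of 3.51%. Their median depth was 4096.5 UMIs against 4842 in the other 2051 cells, and their share of mitochondrial UMIs was 2.77% against 2.12%.

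Pluripotency genes did not all have the same level in these cells. The summed pluripotency factors had 3964 CPM in the 86 cells and 5149 CPM in the others, whereas the summed pluripotency-associated genes had 7738 and 7153 CPM. The difference in the latter sum is smaller than that of its member Fbxo15 alone, and other members, such as Dppa5a with 1421 and 1835 CPM, L1td1 with 329.7 and 624 CPM and Tdgf1 with 308 and 479.8 CPM, were lower in the 86 cells. The S phase list had 6409.5 and 8094 CPM, and the G2/M list 12572 and 12095 CPM. Nanog had 576 CPM (506 to 654) and 572 CPM (558 to 585), and Pou5f1 had 56.9 and 57.8 CPM, with overlapping intervals in both cases. Esrrb had 178 CPM (139.9 to 223) against 363, Tet1 645 CPM (571 to 727) against 1209, and Cobl 527 CPM (459.6 to 601) against 1239. In the other direction, Fbxo15 had 1886 CPM (1757 to 2022) in the 86 cells and 363 CPM (353 to 374) in the others, and Dppa2 had 1053 CPM (958 to 1156) and 337 CPM (327 to 348). Dnmt3b had an interval of 8.19 to 37.4 CPM in the 86 cells, against 59.2 CPM in the others. The intervals are exact Poisson intervals over UMIs, and cells of 1 library are no replicates, so these differences were not tested.

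The genes that varied most among all mESCs were found in these same cells. Cells with at least 2000 UMIs (1861 cells) were thinned to 2000 UMIs, and 10543 genes were ranked by the excess of their variance over mean above genes of like level. The 25 genes of largest excess included 0 of the 2-cell-like list, yet all 25 were at least 10 times higher in the 86 cells than in the others. Csmd1, a very large membrane protein, was first with a log2 excess of 3.79. It had 1139 CPM in the 86 cells and 12.2 CPM in the others. Chrm3, a muscarinic acetylcholine receptor, had 1196 and 6.81 CPM, and the Slit receptor Robo1 had 2299 and 97.0 CPM. The spliceosome factor Cwc22 had 1969 and 88.4 CPM.

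**Figure D5:**
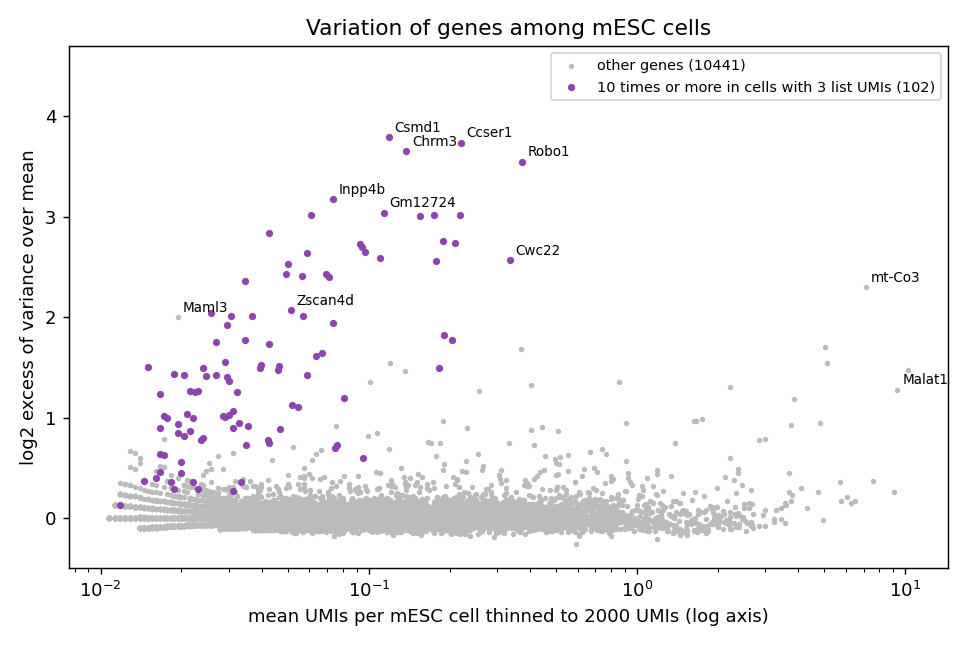
Log2 excess of variance over mean against mean UMIs per cell (log axis) for 10543 genes in mESCs thinned to 2000 UMIs. The 102 genes at least 10 times higher in the 86 cells with 3 or more UMIs of the 2-cell-like list are coloured and include all 25 genes of largest excess, such as Csmd1 (3.79) and Ccser1 (3.74).

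Many of these 25 genes are long. Their median span was 193447 bases, compared with 30378.5 bases for all ranked genes, and 11 of them span over 300000 bases. Ccser1 spans 1202550 bases, and its 1129 UMIs lay in 299 cells, with 96 in a single cell. In the 1% of cells with most Ccser1 UMIs lay 51.3% of them. Csmd1, Inpp4b, Dlgap2, Marchf1 and Neto2 are all on chromosome 8. Shorter genes were among the 25 as well, such as Eif1ad15 with 3905 bases. Eif1ad8 and Eif1ad15, copies related to an initiation factor on chromosome 12, had 1077 and 911 CPM in the 86 cells against 6.64 and 4.29 CPM, and Gm21761 had 1027 against 2.69 CPM. Reads of the Eif1ad copies could be split between them.

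When these cells were left out, which kept 1796 of the 1861 cells, only 6 of the 25 genes stayed among the 25 most variable. The lncRNA Gm38825 then led with a log2 excess of 2.48, and 7 of the 25 were mitochondrial genes, of which mt-Co3 was first with 2.25. Malat1 was also among them with 1.28, and the imprinted gene Peg10 had 1.20.

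Clustering separated mainly the same cells, and the genes that lead a cluster describe it and are not findings. At a Leiden resolution of 0.5, clusters of 1970, 106 and 61 cells were obtained. The first held 92.2% of cells. It was led, in order, by the interferon-induced membrane protein Ifitm3, the metallothionein Mt1, Pet100, Nefl and the metallothionein Mt2. These had 107, 157, 59.9, 51.4 and 338 CPM in this cluster against 17.2, 36.1, 14.1, 12.5 and 95.7 CPM outside it. The second was 2-cell-like by its markers. It held 76 of the 86 cells, with 353 CPM of Zscan4c, 405 CPM of Zscan4d and 233 CPM of Tmem92, against 1.63, 2.57 and 1.11 CPM in the first. The genes that led it were Gm12724 (1137 against 0.761 CPM), Chrm3, Gm21761, 5430402O13Rik, the transporter Abcb5 (347 against 0.169 CPM), Eif1ad15, Gm21847, Eif1ad3, the helicase copy Eif4a3l1 (421 against 0.677 CPM) and Speer4cos. At 1000 UMIs per cell, 22.6% of its cells had no UMI of the 5 stem cell markers, compared with 1.27% in the first cluster. Ifitm3 was the gene most depleted in it, with 18.1 CPM against 105 CPM outside.

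The third cluster was left unnamed. Its 61 cells had a median of 1837 UMIs, against 4976 in the first cluster, and 6.40% mitochondrial UMIs against 2.06%. Its leading genes, such as Maml3 (15 UMIs, 108 against 6.16 CPM), Taco1 (41 UMIs, 295 against 30.4 CPM) and mt-Nd3 (179 UMIs, 1287 against 194 CPM), rest on few UMIs. Zfp42 and Dppa5a were present in it at 618 and 1014 CPM, while Nanog had 129 CPM against 576 CPM in the first cluster. Genes restricted to Neuro-2a and to NIH/3T3 stood in it at 0.746% and 0.617% of their level in their own line, against 0.449% and 0.506% in the first cluster and 0.865% and 0.922% in the second. The part of depth and cell quality in this cluster was not tested.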

How the data were processed

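The authors demultiplexed 1 CapSeq experiment by barcode and counted UMIs with STARsolo, using GRCm39 and the GENCODE M30 annotation. The deposited matrices hold raw UMI counts per gene and barcode for each line and for the pool. The feature mode, the use of intronic reads and the treatment of multimapping reads are not given in the sources used here.

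Cells were kept at 1000 or more UMIs and at most 20% mitochondrial UMIs, and doublets were not called. UMIs were summed over the cells of a line, from 11697865 in NIH/3T3 to 17955221 in Neuro-2a, and given as CPM. With 1 library per line there is no replicate check, and genes were called by a ratio of 4 in CPM + 1 among genes with at least 10 CPM in a line. Poisson and binomial intervals are exact at the 95% level. Gene positions come from GENCODE M39 on GRCm39, where 32953 of 33565 gene identifiers were found. For shares, cells were thinned to 1000 UMIs. Variance over mean in cells thinned to 2000 UMIs was compared with a running median of 301 genes, for genes with a UMI in at least 20 cells. Clustering used counts scaled to 10000, 150 variable genes without mitochondrial, Rpl and Rps genes, 50 principal components, 100 neighbours and leidenalg 0.10.2 at resolution 0.5. Python 3.11.15, scipy 1.17.1 and edgeR 4.0.16 (TMM factors as an alternative only) were used.

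The genes named were the 5 markers, the 25 most abundant outside the mitochondrial genome, the 25 with the largest ratio to the higher other line at 50 or more CPM in mESCs, and the 15 with the smallest ratio to the lower other line at 50 or more CPM in both. In each list they were the 4 most abundant, the 3 of largest and 3 of smallest ratio, and members at 0. The 25 most variable genes, 10 leading genes per cluster and Hprt were added. The cells, lists and rules were chosen with earlier results of these data known. Alternatives changed the cell filter, scaling, summing, pseudocount, minimum, ratio, matrix, list minimum, depth and clustering settings. A few items are not reported here.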

Additional observations from a re-analysis of the deposited data

How the results depend on the processing

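The numbers of genes called depended on the pseudocount and the minimum, and hardly on scaling or cell filter. With a pseudocount of 10 CPM, 367 genes were higher and 112 lower, with at least 50 CPM 336 and 216, and at a ratio of 8 572 and 137, since these settings call fewer genes by construction. Without a minimum, 1160 were higher and 400 lower. Higher genes were 68.0% of calls in the values reported, 76.6% with a pseudocount of 10 CPM, 60.9% with at least 50 CPM and 80.7% at a ratio of 8. Under the other 7 settings, among them TMM factors (791 and 379) and leaving out the 5% of cells with most UMIs (805 and 368), the counts ran from 788 to 847 and from 359 to 391. Of the 40 genes named for their ratio, all kept their call under 10 of 11 settings, and Rps18-ps6 lost it where Rpl and Rps genes were removed. A minimum of 500 UMIs gave 2326 mESCs and one of 2000 gave 1861. The 100 most abundant genes took 15.9% of UMIs over all barcodes and 13.4% without mitochondrial, Rpl and Rps genes. Chromosome 15 was at -0.45 over NIH/3T3 with at least 50 CPM. The share of cells with 2-cell-like UMIs was 7.72% at 1 UMI or more, 3.18% at 5 or more and 2.15% after thinning to 1000 UMIs. Without these cells, 6 of the 25 most variable genes stayed. A resolution of 0.2 gave 2 clusters of 2045 and 92 cells, a resolution of 1.0 gave 8 clusters and 30 neighbours gave 6. No paired analysis was possible because each line is 1 library.

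Line, culture medium and library cannot be told apart. The BC1 spread measures barcodes of 1 sample only. Genes with few UMIs per cell, such as Pou5f1, limit what shares of cells show at this depth.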

Other observations

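Genes named here were chosen after their values were seen. Transcripts of the Y chromosome were clearly present in mESCs and made up 0.151% of their UMIs, against 0.0234% in Neuro-2a and 0.0209% in NIH/3T3. Uty, a histone demethylase gene, had 114 CPM in mESCs, 0.167 CPM in Neuro-2a and 0.171 CPM in NIH/3T3. Eif2s3y, a subunit of the initiation factor eIF2, had 64.9 CPM in mESCs, 0.111 CPM in Neuro-2a and 0 CPM in NIH/3T3, and the RNA helicase Ddx3y had 85.1 CPM in mESCs, 5.51 CPM in Neuro-2a and 5.56 CPM in NIH/3T3. The noncoding gene Gm47283 held most of the Y chromosome UMIs in mESCs, with 14964 UMIs, and was also counted in the other lines, with 1214 CPM in mESCs, 224 CPM in Neuro-2a and 194 CPM in NIH/3T3.

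Long noncoding RNAs made up 85 of the mESC-higher genes. Tsix, the antisense partner of Xist, had 287 CPM in mESCs, 5.63 CPM in Neuro-2a and 1.20 CPM in NIH/3T3, and reads cannot be assigned to a strand with certainty from the sources used here. Halr1, a noncoding RNA next to the HoxA cluster, had 154 CPM in mESCs, 0.167 CPM in Neuro-2a and 3.16 CPM in NIH/3T3. Firre, an RNA of the X chromosome with a role in nuclear organisation, had 99.2 CPM in mESCs, 4.23 CPM in Neuro-2a and 14.2 CPM in NIH/3T3, and Platr28 had 96.6 CPM in mESCs, 0.501 CPM in Neuro-2a and 0.0855 CPM in NIH/3T3.

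At a clustering resolution of 1.0, some clusters were led by 1 or 2 genes. Plekhg1 had 219.9 CPM in a cluster of 234 cells against 39.6 CPM outside it, and Fbxl7 had 60.3 CPM in the same cells against 10.7 CPM. Uap1, an enzyme of UDP-N-acetylglucosamine synthesis, had 212 CPM in 103 cells against 26.8 CPM. Cab39 had 271 CPM in 131 cells against 115 CPM, and the noncoding gene 5730522E02Rik had 345 CPM in 297 cells against 145 CPM. These genes took part in the clustering, so the differences are descriptions.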
